A study of Homo sapiens with 42 samples.

Results

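The genes described here encode the proteins of the cytosolic ribosome. They were taken by symbol: RPL or RPS followed by a number, with the suffixes A, X or L and a copy number where present, together with RPLP0, RPLP1, RPLP2 and RPSA. The rule found 90 genes, 34 of the small subunit and 56 of the large subunit, among 57793 named genes in the tables of RS411, RCH and SEM and 57820 in those of Reh and 697. Reh, 697, RS411, RCH and SEM are cell lines of B-cell acute lymphoblastic leukaemia, labelled bone marrow and grown in RPMI1640 with fetal bovine serum below passage 20. NSD2, listed under its older symbol WHSC1, encodes a histone methyltransferase.

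Reh and 697 carried an empty vector (EV), a vector with wild-type NSD2 (WT) or a vector with the mutant form labelled EK. RS411, RCH and SEM, which are known to carry the EK allele themselves, carried a non-targeting hairpin (NT) or one of the NSD2 hairpins sh2 and sh5. All arms of a line were therefore engineered, the EV and NT controls included, and no unmodified cells were compared. Each arm held 3 libraries, except in Reh with 2, for 42 samples in all. Hairpin sh5 is named in the sample titles and not in the design text, and the sources used here do not give whether the engineered lines were clones or pools. The labels do not state that the replicates of an arm were grown as separate cultures, and the p-values then reflect only how far these libraries differ, which may be technical. Expression was measured on bulk RNA, in which fewer cells of a type and less RNA per cell cannot be told apart.

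The cytosolic ribosome has a small subunit, which holds the messenger RNA and reads its codons, and a large subunit, which joins amino acids and carries the peptide exit tunnel. Its proteins are made in near-equal amounts from messages that mostly begin with a C followed by an unbroken pyrimidine run, the 5′ terminal oligopyrimidine tract, through which mTORC1 controls their translation. RPL5 and RPL11 bind the 5S ribosomal RNA and, when not built into ribosomes, the p53 ligase MDM2. Loss of 1 copy of several of these genes, RPS19 most often, causes Diamond-Blackfan anaemia, a failure of red cell production. A few members have a paralogue from a separate gene, such as RPL22L1 for RPL22, RPL39L for RPL39 and RPS27L for RPS27, and RPS27L is a known target of p53.

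The start sites of the members that the results below turn on are shown first, because the tract is the sequence feature the family is known for and the paralogues can be compared by it. Each sequence is 15 bases before and 15 bases from the annotated RefSeq start (build GRCh38.p14), 5′ to 3′ on the gene's strand, and the capitals mark the pyrimidine run that begins at the start. RPSA, RPL21, RPL37A, RPS3A, RPL34, RPL26 and RPL9 were called in SEM, RPS16 had the smallest adjusted p with sh2 in RS411 and varied most in RCH, and RPL26, RPS27 and RPL22 stand beside their paralogues; RPL7L1 is the paralogue of RPL7.
RPSA, chr3:39406705-39406734, plus strand: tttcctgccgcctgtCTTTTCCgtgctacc
RPL21, chr13:27251543-27251572, plus strand: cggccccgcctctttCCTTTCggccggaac
RPL37A, chr2:216498829-216498858, plus strand: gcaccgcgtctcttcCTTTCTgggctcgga
RPS3A, chr4:151099613-151099642, plus strand: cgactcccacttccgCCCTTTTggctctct
RPL34, chr4:108620561-108620590, plus strand: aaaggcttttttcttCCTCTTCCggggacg
RPL9, chr4:39458908-39458937, minus strand: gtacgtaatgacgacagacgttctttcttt
RPS16, chr19:39435935-39435964, minus strand: gtggcccctagctttCCTTTTCCggttgcg
RPL26, chr17:8383179-8383208, minus strand: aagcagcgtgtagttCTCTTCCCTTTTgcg
RPL26L1, chr5:172958714-172958743, plus strand: agtcttccaggggtcggcgaacgaaacgcg
RPS27, chr1:153990747-153990776, plus strand: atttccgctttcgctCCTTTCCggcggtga
RPS27L, chr15:63157463-63157492, minus strand: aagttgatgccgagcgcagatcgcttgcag
RPL22, chr1:6199581-6199610, minus strand: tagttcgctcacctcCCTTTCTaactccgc
RPL22L1, chr3:170870181-170870210, minus strand: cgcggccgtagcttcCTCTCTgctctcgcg
RPL7L1, chr6:42879601-42879630, plus strand: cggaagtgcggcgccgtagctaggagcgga

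The core genes shown began with a run except RPL9, and of the 4 paralogues shown only RPL22L1 did. A C at the start followed by at least 4 further C or T, read on the gene's own strand, stood at 47 of the 68 members with an entry (69.1%), against 5.14% of the 27305 genes with an entry. Members on chromosome 8 were left out of this count. By entries, the tract stood at 56.0% of the 84 of members and 4.07% of all 35116, and these shares were 70.2% and 21.1% where it could begin within 5 bases of the start. A match describes the letters at the annotated start and no more.

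Total counts were 23688482 to 27244031 reads per library in Reh, 27767490 to 67651596 in RS411, 21876505 to 54879265 in RCH and 32508206 to 39468598 in SEM. In 697 they were 40664735 to 57179806 reads per library, recovered from the normalized counts. Levels are CPM, the reads of a gene divided by the gene reads of its library and multiplied to a fixed total, scaled by edgeR's TMM factors, and in 697 the authors' normalized counts. NSD2 lay outside the control range in every arm. It was 1531 to 1829.6 CPM with EK in Reh against 576 to 579.97 in EV, and 70828 to 102025 normalized counts with EK in 697 against 7723 to 10854. In SEM it fell from 331 to 364 CPM in NT to 166 to 179 with sh2 and 132 to 146 with sh5 (edgeR adjusted p 8.92e-09 and 1.87e-09). In RS411 and RCH the log2 differences were -0.71 to -0.83 and did not pass the adjusted threshold. The 8 B-lymphoid markers summed to 2727 to 3177 CPM in Reh, where VPREB1 had no read, 1654 to 1947 in RS411, 2654 to 3755 in RCH and 1259 to 1543 in SEM.

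The members took 3.88 to 4.46% of gene reads in Reh, 4.59 to 6.72% in 697, 7.73 to 8.77% in RS411, 7.74 to 10.1% in RCH and 7.95 to 8.73% in SEM. Several members had far lower counts in Reh and 697, as given below, so the shares are compared only within a line. Within a line the arms lay close to each other. In SEM the share was 8.68% ± 0.0546 (SD, n = 3) in NT and 8.27% ± 0.270 with sh2, and all 3 sh2 libraries were below all 3 NT libraries. The exact two-sided permutation p was 0.1, the smallest that 3 against 3 allows, and 0.75 after Benjamini-Hochberg adjustment over all 15 comparisons, those between engineered arms included. With sh5 the share was 7.99 to 8.71% against 8.62 to 8.73% in NT, and the ranges overlapped (exact p 0.3), although each sh5 library was below the NT library of its number. Libraries of the same number deviate together in SEM, RS411 and 697. Number by number, the share was also lower in 3 of 3 pairs for SEM sh2 and 697 WT and higher in 3 of 3 for RS411 sh5, whose ranges overlapped their controls except for SEM sh2 (exact p 0.7 for 697 WT and 0.3 for RS411 sh5). In Reh both EK libraries, at 4.29 to 4.46%, were above both EV libraries, at 4.05 to 4.24% (exact p 0.333, the smallest that 2 against 2 allows). In RCH all sh2 libraries (9.23 to 10.1%) were above all sh5 libraries (7.74 to 9.15%; exact p 0.1), while each overlapped NT (8.84 to 10.1%). In 697 the EK libraries were at 4.59 to 6.02%, the WT libraries at 5.03 to 6.56% and the EV libraries at 5.05 to 6.72%. The lowest 697 library, EK replicate 2, also had the highest share of mitochondrially encoded reads, 0.621% against 0.202 to 0.346% elsewhere in 697, and the part of this in the result was not tested. Without it, the log2 ratio of EK over EV was -0.0065 in place of -0.11, and without EV replicate 3 it was -0.0034.

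**Figure D1:**
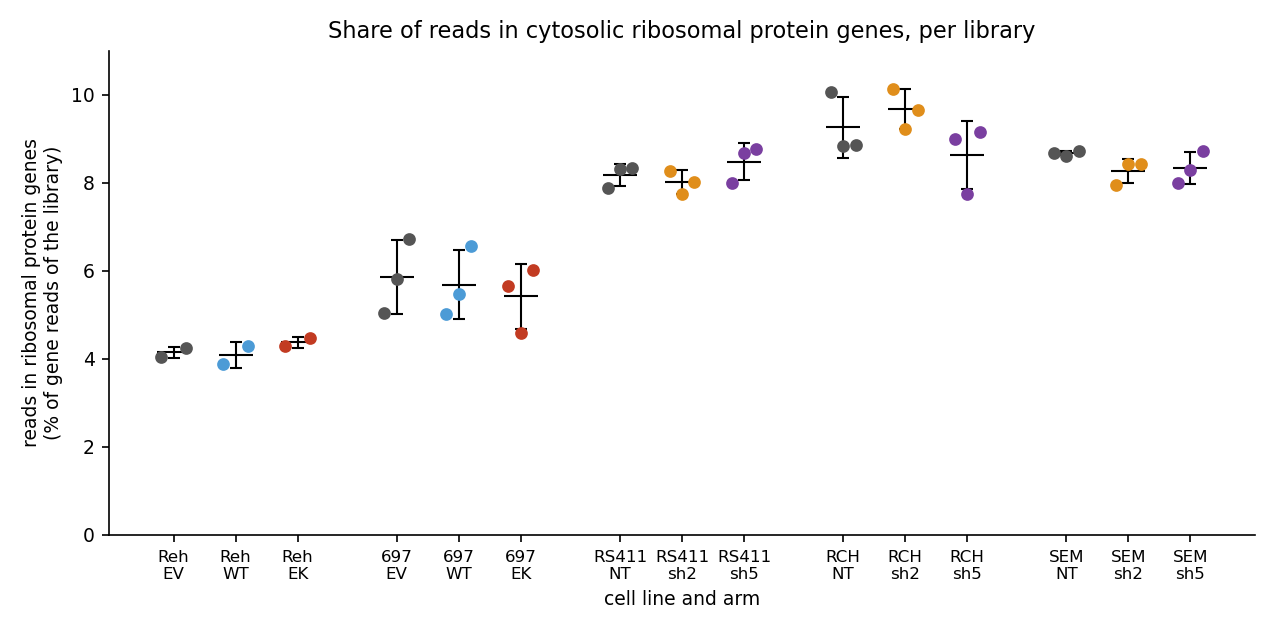
Share of gene reads in the 90 ribosomal protein genes (y axis, %) in each of the 42 libraries, grouped by line and arm. The hairpin lines lie between 7.73 and 10.1% and the vector lines between 3.88 and 6.72%, and the arms of a line mostly overlap. Line, kind of engineering and count table coincide, so the gap between vector and hairpin lines cannot be assigned to any of them.

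Most members moved little in any arm. The median member differed from its control by between -0.16 and +0.08 on the log2 scale over the 10 comparisons with EV or NT. In SEM with sh2, 80 of 86 tested members had a 95% interval of the difference inside 1.5-fold either way, against 54.9% of all genes, and with sh5 it was 79 of 86, against 57.9%. The same count was 73 of 82 for Reh EK (47.1% of all genes), 78 of 86 for RS411 sh2 (55.0%) and 73 of 86 for RCH sh2 (29.3%). It was smallest for 697 EK, at 53 of 83 (46.3%).

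**Figure D2:**
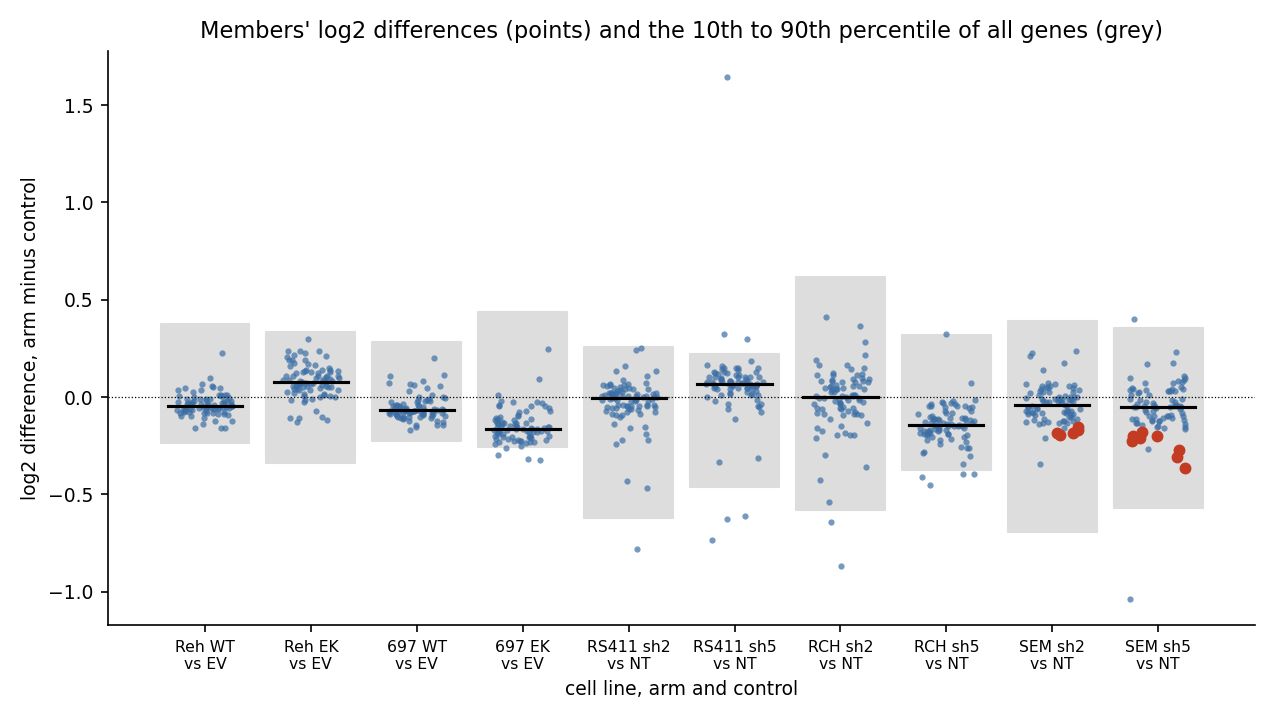
Log2 difference of each tested ribosomal protein gene (points) from EV or NT in the 10 comparisons, with the 10th to 90th percentile of all genes tested in grey. The members lie in a narrow band around their medians, which run from -0.16 in 697 EK to +0.08 in Reh EK.

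SEM was the line in which NSD2 fell past the threshold and the only one in which edgeR's quasi-likelihood test called members against the control. With sh2, 5 of 86 tested members fell and none rose (5.81%; 27.9% of all 17042 genes tested were called, 14.4% lower and 13.5% higher). With sh5, 8 fell and none rose (9.30%; 21.3% of all genes, 10.2% lower and 11.1% higher). DESeq2 called 4 (20.7% of all genes) and 8 (17.6%). With each hairpin 21 members lay below all 3 NT libraries and 2 above them (sh2: 20.1% of all genes below and 19.3% above; sh5: 17.3% and 18.3%). The share of members called was thus below that of all genes, and every called change was smaller than 1.5-fold. The 2 hairpins were compared with the same NT libraries. No member was called with both.

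With sh2 the members that fell were RPSA, RPS20, RPL7, RPL21 and RPL30, the last named after its values were seen. RPSA, a small-subunit protein also known as the laminin receptor precursor, was at 1103, 1112 and 1113 CPM with sh2 against 1332, 1199.6 and 1282 in NT. All 3 sh2 libraries were below all NT libraries, and the log2 difference was -0.20 (SE 0.0538, edgeR adjusted p 0.0126). With sh5 RPSA was at 1206, 1269 and 1294 CPM, inside the NT range (-0.02, edgeR adjusted p 0.868).

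RPS20, a protein of the small-subunit head, was at 1050.2, 1101 and 1092 CPM with sh2 against 1233, 1213 and 1239.6 in NT (log2 difference -0.18, edgeR adjusted p 0.0179). Its groups did not overlap either, while its sh5 libraries, at 1185, 1247 and 1330.2 CPM, spread around NT. RPL21, of the large subunit, was at 805, 818 and 816 CPM against 952, 881 and 907 (-0.17, SE 0.0505, edgeR adjusted p 0.0214), and with sh5 it was at 889, 930.3 and 936.
RPL7, a large-subunit protein, was at 1342, 1368 and 1425 CPM against 1568, 1547 and 1579 (-0.18, edgeR adjusted p 0.0248). It differed from the other 4 in that its sh5 libraries were also all below NT, at 1309.7, 1419 and 1502 CPM (-0.15, edgeR adjusted p 0.0750). RPL30 was at 919, 966 and 951 CPM against 1057, 1049 and 1051 (-0.16, edgeR adjusted p 0.0496) and stood at the threshold, with sh5 at 1026, 1115 and 1174.

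With sh5 the members that fell were RPS10, RPL39L, RPL26, RPS15A, RPS3A, RPL37A, RPL9 and RPL34, of which the last 4 were named after their values were seen. RPS15A, a small-subunit protein, was at 183, 179 and 189.8 CPM with sh5 against 218, 219 and 208 in NT. The groups did not overlap, and the log2 difference was -0.22 (SE 0.0505, edgeR adjusted p 0.00492). Its sh2 libraries, at 195, 191 and 202 CPM, were also below every NT library, with -0.13 and an edgeR adjusted p of 0.0628.

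RPL26, a large-subunit protein and Diamond-Blackfan anaemia gene, was at 189, 201 and 191 CPM with sh5 against 238, 222 and 242 (-0.27, SE 0.0737, edgeR adjusted p 0.0154). Its sh2 libraries spread over 197, 214 and 249 CPM and overlapped NT. RPL39L, the paralogue of the exit-tunnel protein RPL39, was at 18.1, 17.7 and 16.05 CPM with sh5 against 23.3, 21.3 and 19.6 (-0.31, SE 0.0853, edgeR adjusted p 0.0174). With sh2 RPL39L was at 18.9, 17.7 and 18.6 CPM, again below every NT library (-0.21, edgeR adjusted p 0.0788). RPS10, also a Diamond-Blackfan anaemia gene, was at 9.30, 8.79 and 7.11 CPM against 11.9, 10.3 and 10.3 (-0.37, SE 0.114, edgeR adjusted p 0.0319), the largest of the 13 called differences and the one on the fewest reads.

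RPS3A was at 932, 967 and 972 CPM with sh5 against 1133, 1072 and 1117 (-0.21, edgeR adjusted p 0.0105), RPL37A at 1326, 1428 and 1460.2 against 1643, 1572 and 1628 (-0.20, edgeR adjusted p 0.0127), and RPL9 at 899.6, 901 and 936 against 1079.6, 1029.8 and 1029.7 (-0.20, edgeR adjusted p 0.00958). For these members the sh2 differences were -0.14, -0.10 and -0.13 and did not pass the test. RPL34 was at 562, 591 and 611 CPM against 685, 665 and 649 (-0.18, edgeR adjusted p 0.0280), with -0.04 for sh2. Of the genes called with sh5, RPS3A, RPL9 and RPL34 are the members on chromosome 4, whose 477 tested genes had a median of -0.06. Of the 5 called with sh2, 3 (RPS20, RPL7 and RPL30) are on chromosome 8, whose 432 tested genes had a median of -0.07. With the other hairpin no member on these chromosomes was called, at medians of -0.09 (chromosome 4, sh2) and -0.03 (chromosome 8, sh5). Chromosome 18 had a median of -0.06 with each hairpin and no member called.

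**Figure D3:**
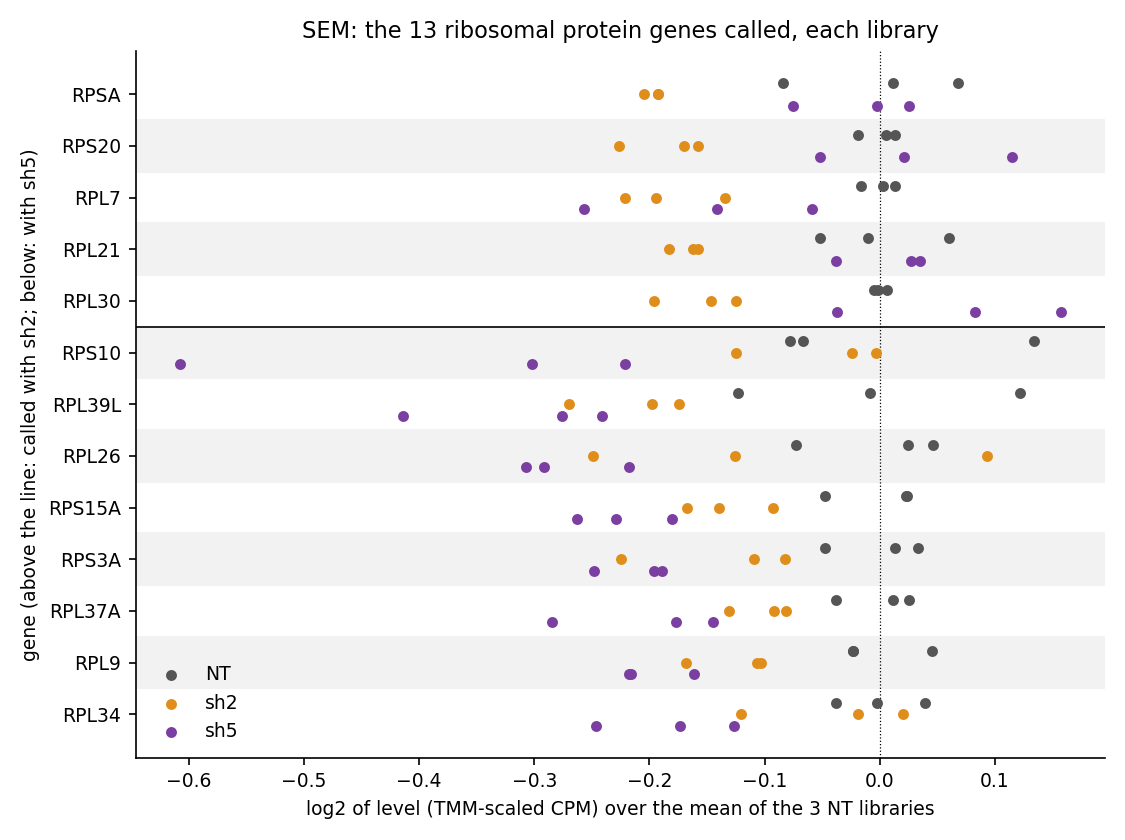
Log2 of the level over the mean of the 3 NT libraries (x axis) for the 13 ribosomal protein genes called in SEM, with each of the 9 libraries as a point; the genes above the line were called with sh2 and those below it with sh5. The called arm lies below all NT libraries for each gene, and for RPL7, RPL39L, RPS15A, RPS3A, RPL37A and RPL9 the other hairpin does too.

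Several of these genes have numbered pseudogenes in the tables, 24 for RPL7, 56 for RPL21, 34 for RPS3A, 25 for RPSA and 16 for RPL9, and reads that fit both are uncertain. Reads of all 810 pseudogene names came to 0.609 to 0.680% of the members' reads in SEM. RPS10, RPL17 and RPL36A overlap the read-through genes RPS10-NUDT3, RPL17-C18orf32 and RPL36A-HNRNPH2, which had no read in any library of the 5 lines, and the sources used here do not give how reads in both were counted. The levels of RPS10 (7.11 to 11.9 CPM), RPL17 (10.3 to 13.7) and RPL36A (6.48 to 9.26) in SEM are therefore uncertain.

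The SEM counts depended on single libraries. With sh2 the count was 1 without sh2 replicate 1 and 2 without sh2 replicate 2, sh2 replicate 3 or NT replicate 3. With sh5 it was 5 without sh5 replicate 1 or replicate 2. The shares of all genes called in fits that left out 1 library are not given here, for SEM or for the comparisons below. An edgeR fit blocked on the replicate number called 19 members with sh2 (17 lower and 2 higher; 37.9% of all genes) and 18 with sh5 (17 lower and 1 higher; 32.8%). In that fit 8 members were called with both hairpins, 7 lower and 1 higher.

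The 7 lower in both were RPS15A, RPS6, RPS3A, RPL7, RPL22L1, RPL9 and RPL39L, named after their values were seen. RPS6, the substrate of S6 kinase downstream of mTORC1, was at 2684, 2873 and 2779 CPM with sh2 and 2644, 2746 and 2922 with sh5, against 3075, 3014 and 3013 in NT. Both hairpins were below all NT libraries (log2 difference -0.13 each, blocked edgeR adjusted p 0.0403 and 0.0389). RPL22L1, the paralogue of RPL22, was at 31.0, 20.7 and 23.2 CPM with sh2 and 31.5, 22.2 and 25.3 with sh5, against 38.4, 28.9 and 28.0. Its replicate 1 was the highest in all 3 arms, and each hairpin library was below the NT library of its number (log2 difference -0.35 and -0.27, blocked edgeR adjusted p 0.000173 and 0.00231, against 0.236 and 0.382 without the block). RPS27L was the member called higher, at 32.7, 28.1 and 28.0 CPM with sh2 and 29.3, 28.0 and 27.9 with sh5, against 29.2, 22.5 and 23.7 (+0.24 and +0.18, blocked edgeR adjusted p 0.00646 and 0.0359, against 0.0819 and 0.217 without it).

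RPL5, RPL11, RPS19 and RPLP0 did not pass the test in SEM. RPL5, which binds MDM2, was at 1855, 1950.3 and 1929 CPM with sh2 and 1813, 1863 and 1962 with sh5, against 2049, 2009.6 and 2015 in NT. Every hairpin library was below every NT library, with log2 differences of -0.08 (95% interval -0.19 to 0.03) and -0.11. RPL11, its partner on the 5S ribosomal RNA, was at 1259, 1351 and 1324 CPM with sh2 and overlapped the 1339, 1289 and 1363 of NT (-0.02, 95% interval -0.14 to 0.10). RPS19 differed by +0.07 with sh2 and +0.03 with sh5, and the stalk protein RPLP0 by +0.05 and +0.04. Of the 18 Diamond-Blackfan anaemia genes none was called with sh2 and 2 with sh5 (RPL26 and RPS10), where 27.9% and 21.3% of all genes were called. Of the 5 that bind MDM2 or form the 5S particle none was called with either, though all 5 were below 0 with both (50.8% and 48.8% of all genes above 0). With the block, none of these 5 was called with sh2 and 1 with sh5, and 1 and 4 of the 18 (37.9% and 32.8% of all genes).

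Between the hairpins, 5 members were lower with sh2 than with sh5 and none was higher (12.4% of all genes called, 8.02% lower and 4.33% higher). RPL30 differed most (log2 difference -0.23, SE 0.0557, edgeR adjusted p 0.0139), followed by RPS20 (-0.21, edgeR adjusted p 0.0153), RPL21 (-0.18, edgeR adjusted p 0.0325) and RPSA (-0.18, edgeR adjusted p 0.0402). These 4 were the sh2 calls other than RPL7. The fifth was RPL13A, a large-subunit protein, at 2135, 2279.5 and 2252 CPM with sh2 and 2405, 2554 and 2717 with sh5 (-0.20, SE 0.0584, edgeR adjusted p 0.0324). No sh2 library of RPL13A reached the lowest sh5 library. The count fell to 1 without sh2 replicate 1, to 2 without sh2 replicate 2 and to 0 without sh2 replicate 3, sh5 replicate 2 or sh5 replicate 3, and was 11 (5 higher, 6 lower; 20.7% of all genes) with the block. NSD2 itself was higher with sh2 than with sh5 by 0.29 on the log2 scale (edgeR adjusted p 0.00425).

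The balance of the subunits was lower in every hairpin library of SEM than in NT, a pattern noticed after the values were seen. Reads of small-subunit genes over those of large-subunit genes came to 0.6565 to 0.6587 in NT, 0.6391 to 0.6477 with sh2 and 0.644 to 0.647 with sh5. Both hairpins were below NT with no overlap (exact two-sided permutation p 0.1 each, the smallest possible, and 0.5 after Benjamini-Hochberg adjustment over 10 comparisons). By calls the subunits were close, 2 of 34 small-subunit genes and 3 of 52 large-subunit genes with sh2, and 3 of 34 and 5 of 52 with sh5. The other 8 comparisons overlapped in this ratio, which was highest in RCH at 0.694 to 0.718.

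Split by the tract at the start site, 2 of 47 members with it and none of 20 without it were called with sh2, and 5 of 47 and 1 of 20 with sh5. This split leaves out the members on chromosome 8, and so 3 of the 5 called with sh2 (RPS20, RPL7 and RPL30). It also lacks RPL39L and RPS15A, called with sh5, which had no entry. Each of these shares was below the 27.9% and 21.3% of all genes. The median difference was -0.05 with it and 0.00 without it for sh2, and -0.05 and -0.01 for sh5. Of the genes printed above, RPL9 has no run at its annotated start, although its printed sequence ends in an unbroken run of C and T. RPL9 fell with sh5 as RPS3A, RPL37A, RPL34 and RPL26 did. The split goes by the annotated start alone.

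Other genes of ribosome supply in SEM were read from lists of the pathway. Of 74 mitochondrial ribosomal protein genes, 10 rose and 1 fell with sh2, and 9 rose and 2 fell with sh5. These counts of higher genes were close to the shares over all genes, 13.5% of which were higher with sh2 and 11.1% with sh5, and 14.4% and 10.2% lower. The medians were +0.10 and +0.13, beside -0.05 for the 77 core cytosolic members with either hairpin. MRPL33, of the mitochondrial large subunit, was at 82.4 CPM ± 2.17 (SD, n = 3) with sh2 against 53.6 ± 2.21 in NT (+0.62, edgeR adjusted p 5.70e-07) and was +0.61 with sh5. Of 37 nucleolar assembly factors, which build the subunits from ribosomal RNA and these proteins, 8 rose with sh2 (21.6%, against 13.5% of all genes) and 3 with sh5 (8.11%, against 11.1%), and none fell. Among them RRP12 differed by +0.41 and NOP2 by +0.39 with sh2. Of 14 subunits and factors of RNA polymerase I, which transcribes ribosomal RNA, 4 rose with sh2 (28.6%) and 1 with sh5 (7.14%), with the subunit gene TWISTNB at +0.39 and +0.48. With the block 19.3% of all genes were higher and 18.5% lower with sh2, and 17.7% and 15.1% with sh5. In that fit 24 mitochondrial ribosomal genes were higher and 2 lower with sh2, and 28 and 2 with sh5, while 19 and 11 nucleolar factors were higher and none lower. All 15 core cytosolic members called with each hairpin were lower (19.5% of the 77).

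The counts in the next lists stand beside 13.5% of all genes higher and 14.4% lower with sh2, and 11.1% and 10.2% with sh5. Of 25 translation factors and other genes with the tract, 1 rose and 2 fell with sh2 and 4 rose with sh5. SNHG6, a noncoding host of small nucleolar RNAs that carries the tract, moved in opposite directions, at 110 CPM ± 6.30 (SD, n = 3) with sh2 and 174 ± 11.9 with sh5 against 137 ± 4.53 in NT (-0.31, edgeR adjusted p 0.00134, and +0.34, edgeR adjusted p 0.000975). GAS5, a host of the same kind, fell with sh2 (-0.16, edgeR adjusted p 0.0381), and ZFAS1 rose with sh5 (+0.35). Of 20 regulators around MYC and mTORC1, 6 rose and 1 fell with sh2 and 7 rose and 1 fell with sh5. MXD1, which competes with MYC for MAX, was at +0.91 and +0.55. Of 12 genes of the p53 response 2 rose and 3 fell with sh2 and 1 rose and 3 fell with sh5. Among these 12, SESN1, a p53 target and also an mTORC1 inhibitor, was at +1.31 and +0.87, and MDM2 at -0.35 with sh2. None of the 13 mitochondrially encoded transcripts, the 3 stalk genes among the members or the 3 tested other proteins of the cytosolic ribosome was called with either hairpin.

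**Figure D4:**
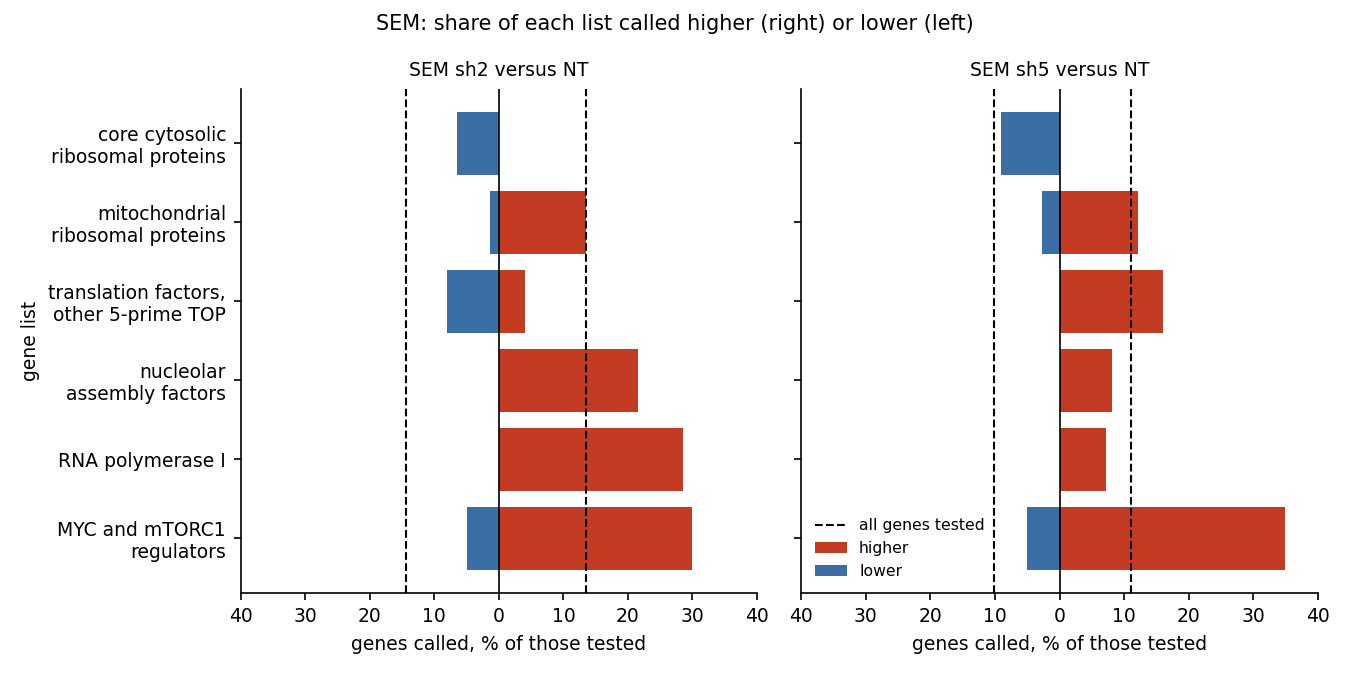
Share of each gene list called higher (right, red) or lower (left, blue) in SEM, in % of the genes tested, for sh2 and sh5 against NT, with the share of all genes as dashed lines. The core cytosolic ribosomal proteins have calls only on the lower side, at 5 and 7 of 77 genes, while nucleolar factors and RNA polymerase I have calls only on the higher side. With sh5 the shares of nucleolar factors and RNA polymerase I lie below the 11.1% of all genes called higher.

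Marker genes of other cell types moved with the hairpins in SEM, where 13.5% of all genes were higher and 14.4% lower with sh2. With sh5 these shares were 11.1% and 10.2%. The 8 B-lymphoid markers summed to 1403 to 1543 CPM in NT, 1279 to 1302 with sh2 and 1259 to 1303 with sh5, and 3 of 8 fell with sh2, while with sh5 4 fell and 1 rose. VPREB1, part of the pre-B cell receptor, was at -1.09 and -0.97. The 8 myeloid markers summed to 14.6 to 21.5, 35.2 to 50.9 and 43.7 to 57.3 CPM, with FCGR3A at 0 reads, and 2 and 3 of the 3 tested rose. CSF1R was at 40.3 CPM ± 7.36 (SD, n = 3) with sh2 and 43.8 ± 4.76 with sh5 against 16.1 ± 3.11. The stromal and epithelial list summed to 105 to 129 CPM in NT and 143 to 165 over both hairpins, nearly all of it PDGFRB. Erythroid and megakaryocytic markers summed to at most 4.03 CPM, with HBA1, HBB and PPBP among those at 0 reads, and T and NK markers to 78.0 to 102 CPM. The part of these genes in the ribosomal protein results was not tested.

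In RS411, edgeR called no member with sh2 (1.67% of all genes called), with sh5 (0.478%) or between the hairpins (0.577%). At an unadjusted p under 0.05 there were 2, 5 and 10 members (18.2, 11.3 and 12.8% of all genes). DESeq2 called 1 with sh2 (5.73% of all genes), 1 with sh5 (1.51%) and 0 between them (2.13%). The median member was at -0.01 with sh2, at +0.01 by DESeq2, and at +0.07 with sh5, where 72 of 86 were above 0 (46.7% of all genes above 0).

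RPS16, a small-subunit protein near the decoding site, was at 258, 348 and 374 CPM with sh2 against 474, 413 and 436 in NT. All sh2 libraries were below NT, most in replicate 1 (log2 difference -0.43, SE 0.118, edgeR adjusted p 0.0854, DESeq2 adjusted p 0.0264). Its sh5 libraries, at 331, 365 and 366 CPM, were below NT as well, with an edgeR adjusted p of 0.338. Without sh2 replicate 3, 2 members were called, RPS16 and RPS27L. RPL39 was at 321, 285 and 319 CPM with sh5 and 293, 273 and 259 with sh2 against 254, 236 and 250.2 in NT, so that all 6 hairpin libraries were above NT. The difference for sh5 was +0.32 (SE 0.0743, edgeR adjusted p 0.0969, DESeq2 adjusted p 0.00782).

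With the block on the replicate number 2 members were called with sh2 (14.5% of all genes), RPS27L higher and RPL36A lower, and 1 with sh5 (5.41%), RPL39 (blocked edgeR adjusted p 0.00301). RPS27L was at 59.0, 57.3 and 47.8 CPM with sh2 against 47.7, 44.0 and 46.3 (+0.25, edgeR adjusted p 0.149, blocked 0.0310). RPL36A was at 8.68, 6.61 and 5.50 CPM against 12.5, 9.11 and 7.21, below NT within each number although the groups overlap (-0.47, edgeR adjusted p 0.305, blocked 0.0195). Between the hairpins the block called RPS27A, a fusion of ubiquitin and a ribosomal protein, and RPS23 (9.06% of all genes). RPS27A was at 849, 798 and 744 CPM with sh2 and 891, 988 and 945 with sh5 (-0.24, blocked edgeR adjusted p 0.0195), and RPS23 at 1236, 1109 and 1304 and 1382, 1373 and 1443 (-0.20, blocked edgeR adjusted p 0.0377). RPS24 was at 1527, 1588 and 1624 CPM with sh5 against 1391, 1362 and 1415 without passing either test.

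In RCH, edgeR called no member with sh2 (1.37% of all genes), with sh5 (0.0229%) or between the hairpins (0.0%). DESeq2 called none in any of the 3 (5.05, 0.378 and 0.915% of all genes). At an unadjusted p under 0.05 there were 2, 2 and 6 (18.7, 4.04 and 9.81% of all genes). The median was 0.00 with sh2, and with sh5 -0.15 with 2 of 86 members above 0, which under the other scalings was at most 3. Of all genes 48.8% were above 0 with sh5. With sh5, 10 members lay below all NT libraries and none above (5.14% of all genes below and 3.97% above).

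RPS26, a small-subunit protein at the messenger RNA exit site, was at 48.9, 69.5 and 54.1 CPM with sh2 against 68.8, 117 and 129 in NT (log2 difference -0.87, SE 0.365, edgeR adjusted p 0.241). NT replicate 1 was close to sh2 replicate 2, and the groups overlapped. RPL17 was at 8.98, 10.4 and 10.3 CPM with sh2 against 11.1, 16.6 and 18.7 (-0.64, edgeR adjusted p 0.260). RPS27 was at 1343, 1046 and 1075 CPM against 1066, 889 and 889 (+0.28, edgeR adjusted p 0.325). With sh5, RPL26 was at 129, 176 and 217 CPM against 244, 216 and 233, RPS15 at 367, 384 and 458 against 461, 470.4 and 539.5, and RPL28 at 268, 292 and 224 against 305, 289.9 and 372, all with an edgeR adjusted p of 1.00. RPS16 was the most variable member in RCH, at 388, 494 and 136 CPM with sh5, 458, 387 and 311 with sh2 and 399, 411 and 479 in NT, a 3.64-fold span between libraries. Of 37 nucleolar assembly factors, 1 was above 0 with sh2 (48.3% of all genes above 0), with a median of -0.54 and none called.

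In Reh, edgeR called no member with EK (0.213% of all genes), WT (0.219%) or between them (0.0%), and DESeq2 called none (1.21, 0.764 and 0.00556% of all genes). At an unadjusted p under 0.05 there were 1, 0 and 1 (6.15, 4.96 and 1.63% of all genes). With EK, 71 of 82 members were above 0 (median +0.08; 53.3% of all genes above 0), and 40 lay above both EV libraries and 2 below (14.2% and 13.7% of all genes). With WT, 17 of 82 were above 0 (47.9% of all genes above 0), with a median of -0.04. None of these differences passed the test. RPL23 was at 791 and 731 CPM with EK against 643 and 647 in EV (+0.24, SE 0.104, edgeR adjusted p 0.852), RPLP0 at 1336 and 1253 against 1079 and 1116 (edgeR adjusted p 0.911), and RPL6 at 218 and 187 against 169.8 and 159 (+0.30, edgeR adjusted p 0.709). Both EK libraries were above both EV libraries for these 3. RPS19 was at 1287 and 1298 CPM with EK against 1138 and 1148, and RPL11 at 1396 and 1349.9 against 1344 and 1393, overlapping EV. With WT, the smallest adjusted p belonged to RPS27, at 8.12 and 8.53 CPM against 7.32 and 6.90, RPS15, at 134 and 146 against 169.7 and 142, and RPL39L, at 36.6 and 42.4 against 44.2 and 42.6 (edgeR adjusted p 1.000 each). All 37 nucleolar assembly factors were above 0 with EK, with a median of +0.19 and none called.

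In 697, limma called no member with EK (0.172% of all genes), WT (0.19%) or between them (0.0%), and edgeR on the recovered reads called none (0.141, 0.164 and 0.0% of all genes). At an unadjusted p under 0.05 there were 1, 0 and 0 (4.88, 2.87 and 0.723% of all genes). With EK 3 of 83 members were above 0 (median -0.16; 45.6% of all genes above 0), and 3 to 5 under the other scalings. RPL39L was at 696, 616 and 614 normalized counts with EK against 883, 843 and 695 in EV (-0.32 on the log2 scale of value + 1, SE 0.145, limma adjusted p 0.986), with 1 EK library level with the lowest EV library. RPS27A was at 14647, 11577 and 17540.3 against 16341, 18074 and 19559.6, and RPL36AL at 5035, 3498 and 4587 against 5697, 4754 and 5046. For RPS27A and RPL36AL the EK replicate 2 library, the one with the high mitochondrial share, was the lowest. With WT, RPL28 was at 21294, 20697 and 21031 against 23179, 21404 and 22979, below every EV library (log2 difference -0.10, limma adjusted p 1.00), and RPS15 at 5397, 5323 and 6118 against 5756, 5646 and 7293. The median within-arm SD of the members was 0.213 (log2) in 697, against 0.0623 in SEM, 0.0870 in RS411, 0.0909 in Reh and 0.145 in RCH.

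Whether the 3 hairpin lines responded differently was tested in 1 joint edgeR fit per hairpin. For sh2 no member was called (8.37% of all genes), and the smallest adjusted p-values were RPS26 at 0.0620, RPL7L1 at 0.159 and RPS27 at 0.208. For sh5 the test called RPL39L alone (2.17% of all genes; F = 11.1, edgeR adjusted p 0.0361), and the next were RPL26 at 0.360 and RPL39 at 0.529. RPL39L was lower with sh5 in SEM (-0.31), at 21.2, 16.9 and 20.0 CPM against 24.9, 20.8 and 18.8 in RCH (-0.15), and higher in RS411, at 0.297, 0.350 and 0.609 CPM against 0.0693, 0.194 and 0.146 (+1.64, SE 0.488, edgeR adjusted p 0.212). In RS411 the gene is close to the level of a few reads, as 3 reads in its shallowest library make 0.108 CPM. The call was lost without RS411 NT replicate 1, RS411 NT replicate 3, RS411 sh5 replicate 3, RCH NT replicate 2 or SEM NT replicate 3. For sh2 the count was 6 without RCH NT replicate 1 and 1 without RCH sh2 replicate 2 or SEM NT replicate 1. The shares of all genes called in these fits are not given here, so the counts are not read as a result about the members.

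Per kilobase of coding sequence, RPL37A was among the 2 highest members in every control arm, at 2959 CPM per kilobase in Reh, 5108 in RS411, 5984 in RCH and 5849 in SEM, and 265106 normalized counts per kilobase in 697. RPL41, the smallest ribosomal protein, was first in RS411 (5314), RCH (8129) and SEM (6106), and RPS6 was first in Reh (3131). RPS18 was the third in RCH (4966) and SEM (4473). Among the 3 lowest were RPL3L, known from muscle, and RPL10L, known from testis, and in RS411 also RPL39L. Levels per length were available for the 85 members with a coding length in GENCODE 29.

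A few members were not tested for low counts. In the hairpin lines they were RPL10L, RPL3L, RPL7AL2 and RPL7AL3. In Reh they included these 4, RPL12L3 and RPS10L, and in 697 the same genes without RPL3L. RPL10L and RPL7AL3 had no read in Reh, where 3 reads in the shallowest library make 0.127 CPM.

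The level of a paralogue relative to its core gene spanned a wide range over the lines. RPL22L1 per coding base was 92.9% of RPL22 in Reh (80.2 to 129% over 6 libraries), 40.5% in 697, 37.9% in RS411, 16.2% in RCH and 5.97% in SEM (4.40 to 8.74%). The ranges of 697 and RS411 overlapped, and the other neighbours in this order did not. Its level was 125 to 183 CPM in Reh, 131 to 174 in RS411, 45.6 to 77.0 in RCH and 20.7 to 38.4 in SEM, while RPL22 was at 445 to 516 CPM in SEM and 140.05 to 169 in Reh. RPL39L was 26.7% of RPL39 in Reh, 8.94% in 697, 7.68% in SEM, 7.29% in RCH and 0.0820% in RS411, the last below every other line with no overlap. RPL26L1 was 1.29% of RPL26 in Reh and 1.01% in 697 but 6.77 to 8.21% by median in the hairpin lines. In CPM without TMM factors, the hairpin median was 2.67-fold the vector median for RPL22, 2.25-fold for RPL26L1 and 0.369-fold for RPL26, without overlap. Line, kind of engineering and count table coincide, so their parts in the gap between vector and hairpin lines in these ratios cannot be told apart. RPL36AL exceeded RPL36A in all lines, by medians of 767 to 2643%, with the limit on RPL36A given above. RPL3L and RPL10L stayed at or below 0.0217% of RPL3 and RPL10 in every library.

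**Figure D5:**
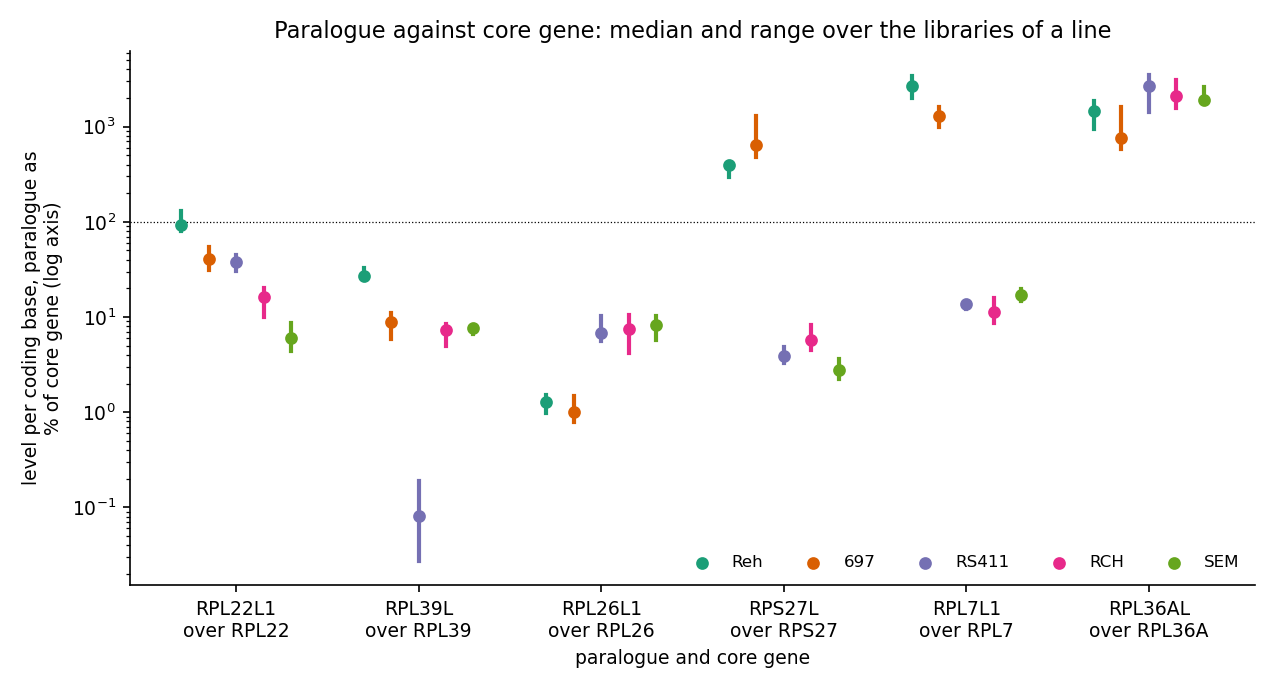
Level of 6 paralogues per coding base as a percentage of the core gene (y axis, log scale), as median (point) and range (bar) over the libraries of each line. RPL22L1 falls from 92.9% of RPL22 in Reh to 5.97% in SEM, RPL39L is nearly absent in RS411, and RPS27L and RPL7L1 stand above their core gene only in Reh and 697. Line, kind of engineering and count table coincide, so gaps between the vector lines (Reh, 697) and the hairpin lines cannot be assigned to any of them.

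RPS27L was at 394% of RPS27 in Reh and 638% in 697, against 2.76 to 5.72% in the hairpin lines. RPL7L1 was at 2644% and 1282% of RPL7 in Reh and 697, against 11.3 to 16.9%. Both stood beside low levels of the core genes in the vector lines. For this comparison CPM was taken without TMM factors, and in 697 from the recovered reads. RPL7 was at a median of 13.2 CPM over the 15 vector libraries and 1777 CPM over the 27 hairpin libraries, 135-fold higher. RPS27 was at 7.18 and 936 CPM, 130-fold, and RPL21 at 11.3 and 573 CPM, 50.6-fold. Of 82 members with at least 1 CPM, 10 were at least 10-fold higher in the hairpin lines by medians, RPS28, RPL41, RPS3A, RPL9, RPS26 and RPS7 among them. In all 30 were at least 2-fold higher, and RPL26 alone was at least 2-fold lower, with a median fold of 1.60 over the 82. The 10 had a median of 15.5 numbered pseudogene names (2 to 56) and the others 5 (0 to 35). The tables were made and scaled separately, and table, line and kind of engineering coincide, so their parts cannot be told apart and no test was made. Within SEM the levels of RPL7, RPL21, RPS3A and RPL9 are therefore read only against SEM's own NT libraries.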

How the data were processed

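RNA was extracted with RNeasy and sequenced from TruSeq stranded total RNA libraries depleted with RiboZero Gold, as 54-base reads, per the labels' protocols. Trimmomatic, STAR, featureCounts and hg19 are named, per the submitters' processing notes, but the sources used here give no settings, including those for strand and multiply mapped reads. Unnormalized read counts of each gene were deposited by the authors for Reh, RS411, RCH and SEM. For 697 the deposited values are a signal, read counts divided by 1 factor per library (normalized counts), and 100% of the values above 0 gave whole reads (tolerance 0.001 reads). Reh counts are listed by identifier, and symbols came from the deposited normalized Reh table, in which the reads of all 90 members match. Gene names read as dates, 27 each in RS411, RCH and SEM, were dropped (0.214, 0.247 and 0.23% of reads). In Reh 3 columns that match no sample here were not used.

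Counts were tested with edgeR 4.0.16's quasi-likelihood test (R 4.3.3; filterByExpr, TMM, all 3 arms of a line in 1 fit) and 697 with limma 3.58.1 on log2(normalized count + 1) where the mean was at least 10. P-values were adjusted by the Benjamini-Hochberg method over all genes tested, and a call is an adjusted p under 0.05. Differences between RS411, RCH and SEM were tested as an arm by line interaction. Shares of reads were compared by exact permutation tests. The scripts were tested on simulated data. Alternatives were DESeq2 1.42.0, other scalings, filters and pseudocounts, pairs of arms alone, a replicate block and leaving out each library; edgeR on the recovered 697 reads with a block or with factors from other genes was added after seeing the data.

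Same-numbered libraries correlated in their deviations from the arm means in every pair in 697 (0.423 to 0.604), RS411 (0.123 to 0.329) and SEM (0.115 to 0.290), so the blocked fit is given where it changes a count there. The members and lists were chosen with earlier results of these data known. Members named are up to 4 called highest and 4 lowest per comparison, or the 3 with the smallest adjusted p where under 3 passed, the paralogues and their core genes, RPL5, RPL11, RPS19, RPLP0 and RPSA, the smallest adjusted p between lines, the 3 highest and 3 lowest per coding length, and those not tested. From the pathway lists, up to 2 called genes per list and comparison were named. A few members and marker genes that these rules name are not reported here.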

Additional observations from a re-analysis of the deposited data

Results flagged for a closer look

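RPL39L was set apart because its response to sh5 differed between RS411, RCH and SEM in the joint edgeR fit (F = 11.1, adjusted p 0.0361). The gene fell in SEM (log2 difference -0.31) and did not pass the test alone in RCH (-0.15) or in RS411 (+1.64, adjusted p 0.212), where its 3 sh5 libraries were at 0.297, 0.350 and 0.609 CPM against 0.0693, 0.194 and 0.146 in NT. The adjusted p rose above 0.05 without RS411 NT replicate 1, RS411 NT replicate 3, RS411 sh5 replicate 3, RCH NT replicate 2 or SEM NT replicate 3. The cause was not tested.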

How the results depend on the processing

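Over the 54 pairs of a named member and a comparison, 622 alternative values were computed, of which 550 kept their direction and their side of the threshold, 60 kept the direction and no longer passed, 12 kept it and passed, and none reversed. In SEM, over 14 settings, RPS15A and RPS3A were called with sh5 in all 14, RPL37A and RPL9 in 13, RPL39L in 12, RPL26 in 11, RPL34 in 10 and RPS10 in 9. With sh2 RPSA was called in 13, RPS20 in 11, RPL7 in 10, RPL21 in 9 and RPL30 in 6. Testing only genes with a mean of at least 50 reads called 14 members with sh2 and 14 with sh5 in SEM. That filter also changed the genes tested, and the share of all genes called under it is not given here. These counts are therefore not read as a stronger result for the members. Leaving out 1 library gave 1 to 6 calls with sh2, 5 to 7 with sh5 and 0 to 5 between the hairpins in SEM, 0 to 2 for RS411 sh2, and 0 to 6 for sh2 and 0 to 1 for sh5 in the joint test. The shares of all genes called in these fits are not given here. In RS411, DESeq2 called 1 member with sh2 (5.73% of all genes) and 1 with sh5 (1.51%). Without a filter on low counts edgeR called 1 and 2, for which the share of all genes is not given here either.

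With the replicate block, SEM had 19 members called with sh2, 18 with sh5 and 11 between the hairpins, and RS411 had 2 with sh2, 1 with sh5 and 2 between them. In RCH the correlations of same-numbered libraries were -0.0709 to 0.620, so not every pair deviated together. In Reh they were 0.545 to 0.581, but 2 libraries an arm give too few pairs to judge the pairing. The block called RPS26 with sh2 in RCH (9.29% of all genes) and RPL6 with EK in Reh (6.43%), 1 member each. The block changed no other count of members. It raised the calls over all genes from 4760 to 6455 and 3623 to 5591 in SEM (sh2, sh5), 286 to 2495 and 82 to 929 in RS411, 239 to 1623 and 4 to 46 in RCH, 34 to 1027 and 35 to 629 in Reh (EK, WT), and 28 to 161 and 31 to 176 in 697.

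The log2 ratio of read shares reversed for SEM sh5 when the median member level was used (0.000373 against -0.058). Leaving out 1 library moved it between -0.096 and 0.053 for Reh WT (0.0133 without EV replicate 2) and between -0.158 and 0.0661 for 697 WT (0.0381 without WT replicate 1). The cause was not tested. With 2 or 3 libraries an arm, differences within the spread were not detectable, and counts of 0 do not show that levels were equal.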
